A study of Homo sapiens with 4 samples.

Results

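Interferon signalling was followed through 9 listed genes that carry the signal of an interferon receptor to the nucleus or switch interferon genes on: the kinases JAK1 and TYK2, the transcription factor STAT2, and the interferon regulatory factors IRF1, IRF2, IRF3, IRF5, IRF7 and IRF9. The genes were taken by name, as all probe sets to which the platform annotation gave exactly 1 gene symbol from this list. This gave 15 probe sets of 8 genes, among 54613 probe sets and 19775 named genes on each array. The annotation used here gave no probe set the single symbol STAT2, so STAT2 is not analysed here. A probe set shared by IRF9 and RNF31 was left out for the same reason.

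Expression was measured on 4 arrays, 1 for each of 4 human lymphoma cultures. The parental cultures were Jeko-1, from mantle cell lymphoma, and Raji, from Burkitt lymphoma, both labelled as untreated. Each gave rise to a rituximab-resistant subline, Jeko-1/R or Raji/R, labelled as treated with the drug. Rituximab is an antibody against CD20. The study set each resistant subline against its parent to search for changes that go with resistance. No group had a replicate, each lymphoma type was represented by a single line, and the labels name no separate cultures. The number of arrays therefore limits the precision of every value, and drug exposure and resistance cannot be told apart.

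Interferons act through paired receptor chains on the cell surface. Type I interferon receptors carry TYK2 and JAK1, which phosphorylate STAT proteins, STAT2 among them. STAT2 and IRF9 are parts of ISGF3, a complex that binds interferon-stimulated response elements (ISRE), whereas interferon gamma signals through JAK1 and JAK2 to gamma-activated sites (GAS). IRF1 is an activator induced by interferon gamma and IRF2 is commonly described as its antagonist. IRF3, IRF5 and IRF7 act upstream, below sensors of nucleic acids, and induce interferon genes. In B cells, IRF5 and IRF7 are also known for their role below Toll-like receptors.

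Several of these genes are themselves interferon targets, so their promoters were searched for the elements named above. RefSeq promoters (GRCh38.p14, 250 bases before to 50 bases after a start) matched 6 of the 9 genes, with 11 promoters in all. Of these promoters, 4 were of IRF5 and 3 of JAK1. IRF2, IRF3 and IRF7 had no promoter among them and were not searched. The GAS motif, TTCNNNGAA, reads the same on both strands and was present in 2 of the 11 promoters, those of IRF1 and IRF9. Of 35116 promoters of this length in the table, 7.66% held it. The strict ISRE core GAAANNGAAA, searched on both strands, was in 0 of the 11 and in 3.57% of all promoters. The IRF1 and IRF9 promoters are shown because they hold the motif, with its letters in capitals. In IRF1 (chr5:132490724-132491023, minus strand) the site TTCCCCGAA began 124 bases upstream of the start, and in IRF9 (chr14:24161015-24161314, plus strand) the site TTCTGGGAA began 63 bases upstream. A match describes the letters only and is not evidence of binding.
IRF1 promoter: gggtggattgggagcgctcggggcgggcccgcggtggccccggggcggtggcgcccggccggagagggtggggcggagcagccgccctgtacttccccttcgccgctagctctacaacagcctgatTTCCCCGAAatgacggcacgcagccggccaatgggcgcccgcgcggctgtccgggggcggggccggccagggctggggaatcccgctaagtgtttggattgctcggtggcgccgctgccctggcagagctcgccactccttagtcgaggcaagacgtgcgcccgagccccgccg
IRF9 promoter: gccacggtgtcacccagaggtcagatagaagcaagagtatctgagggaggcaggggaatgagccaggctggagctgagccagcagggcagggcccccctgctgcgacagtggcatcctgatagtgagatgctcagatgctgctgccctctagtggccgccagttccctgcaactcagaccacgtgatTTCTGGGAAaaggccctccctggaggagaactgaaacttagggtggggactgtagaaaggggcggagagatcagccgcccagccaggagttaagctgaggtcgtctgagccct

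Signals are given on the linear scale of the arrays. The pooled median of all values, a signal of 77.5, served as a floor below which signals were not ranked. Of the 15 probe sets, 12 reached the floor on all 4 arrays, and 13 on at least 1 array. The remaining 2, of JAK1 and IRF5, lay below it throughout. The arrays kept the marks of their cell type, with 5 of 5 measured B-cell markers above the floor on every array and the mantle cell genes CCND1 and SOX11 above it in Jeko-1 and Jeko-1/R but in neither Raji array. The Raji/R array had more probe sets at or above the floor (55.6%) than the others (48.0% to 48.3%).

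**Figure D1:**
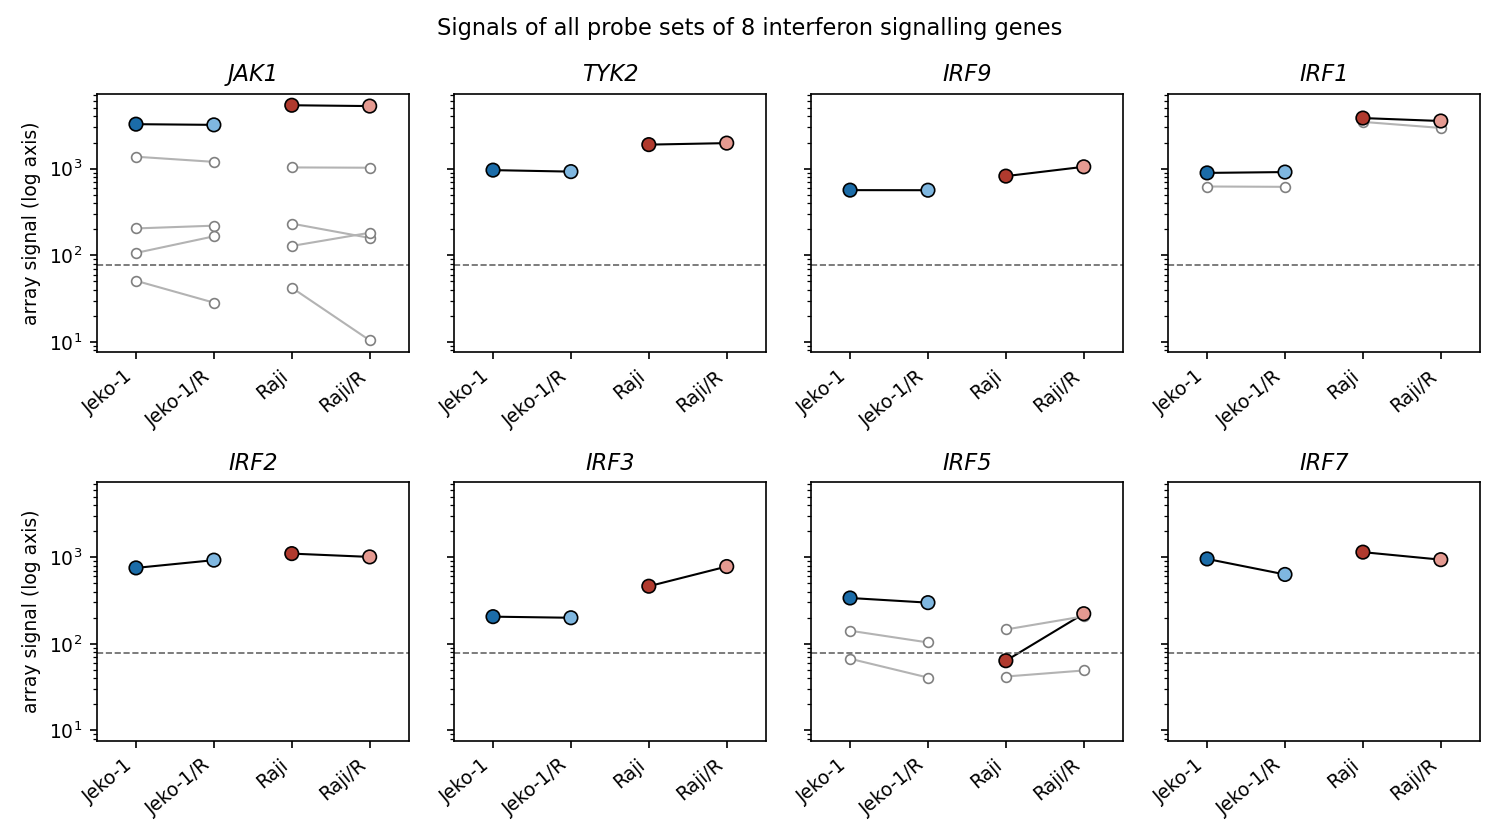
Array signal (log axis) of every probe set of the 8 genes on the 4 arrays, 1 array per culture. Filled points are the brightest probe set of a gene, open points its other probe sets, lines join parent and subline, and the dashed line is the floor of 77.5; IRF1 is at 893 and 913 in the Jeko-1 cultures and at 3832 and 3543 in the Raji cultures.

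The first comparison set the Jeko-1 lines against the Raji lines, using both arrays of each. Most of the 8 genes stood higher in Raji cells. IRF1, IRF3, TYK2 and IRF9 were higher in the Raji lines, as was JAK1 by its brightest probe set alone, IRF5 was higher in the Jeko-1 lines by its brightest probe set alone, and IRF2 and IRF7 did not pass the test. The size ran from 4.08-fold for IRF1 to 1.64-fold for IRF9. The test was limma with cell line and state (resistant or parental) as terms, two-sided and adjusted by Benjamini-Hochberg over 15575 genes. At an adjusted p below 0.05 it called 6 of the 8 genes, 5 of them higher in Raji. Among all genes 53.4% were called, 30.1% higher in the Raji lines and 23.3% higher in the Jeko-1 lines, so differences between the lines were the rule. The median difference, Jeko-1 minus Raji, was -0.72 on the log2 scale over the 8 genes and -0.29 over all genes tested. The p-values measure the difference between lines against the spread between the parent-to-subline ratios, not against separate cultures. The smallest two-sided p that exact permutation of 2 against 2 arrays allows is 0.333.

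Of the receptor-bound kinases, TYK2 was higher in Raji cells, and JAK1 was so only by its brightest probe set. The brightest probe set of JAK1 read 3257 in Jeko-1 and 3198 in its subline, against 5385 in Raji and 5267 in its subline. The 2 Raji arrays were higher than both Jeko-1 arrays, and each subline lay beside its parent. The log2 difference between lines was -0.72 ± 0.24 (SE, n = 2 arrays per line; limma adjusted p = 0.041). The other JAK1 probe sets did not share this difference. One read 1372, 1197, 1032 and 1024 in the same order, higher in Jeko-1 cells by 0.32, and those remaining above the floor differed by 0.14 and -0.20. TYK2, the other kinase of the type I receptor, was read by a single probe set. It stood at 961 and 924 in Jeko-1 and its subline, and at 1892 and 1969 in Raji and its subline. The lines did not overlap, and the Raji lines were 2.05-fold higher (log2 difference -1.03 ± 0.24, limma adjusted p = 0.010).

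IRF9, the DNA-binding partner of STAT2 in ISGF3, read 565 in Jeko-1 and 564 in its subline, and 819 in Raji and 1050 in its subline. Both Raji arrays exceeded both Jeko-1 arrays, and Raji/R was the highest. The log2 difference of -0.72 ± 0.25 lay close to the threshold (limma adjusted p = 0.048).

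IRF1 had the largest difference between lines among the 8 genes. Its brightest probe set read 893 in Jeko-1 and 913 in its subline, against 3832 in Raji and 3543 in its subline. The other IRF1 probe set read 622, 617, 3462 and 2946 in the same order. The pairs of parent and subline were nearly level, and the lines were far apart on both probe sets, by -2.03 ± 0.24 (limma adjusted p = 0.00051) and -2.37 on the log2 scale. IRF2, which binds the same elements, read 751 in Jeko-1 and 923 in its subline, and 1098 in Raji and 1006 in its subline. The lines did not overlap, but their difference did not pass the test (-0.34 ± 0.26, 95% interval -0.94 to 0.27, limma adjusted p = 0.31).

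Of the factors that act below the nucleic acid sensors, IRF3 was higher in Raji cells. It read 206 in Jeko-1 and 200 in its subline, and 462 in Raji and 779 in its subline. The Jeko-1 pair was level, whereas the Raji arrays differed from each other. The Raji lines were 2.96-fold higher (log2 difference -1.56 ± 0.29, limma adjusted p = 0.0033). IRF7, known as the factor that amplifies type I interferon production, read 953 in Jeko-1 and 631 in its subline, and 1142 in Raji and 935 in its subline. Jeko-1 lay above Raji/R, so the lines overlapped, and the difference of -0.41 ± 0.25 did not pass (95% interval -1.01 to 0.18, limma adjusted p = 0.21).

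IRF5 gave opposite answers from its probe sets. The brightest read 338 in Jeko-1 and 299 in its subline, and 63.8 in Raji and 222 in its subline, so that Raji alone lay below the floor. With that value raised to the floor, the Jeko-1 lines were higher by 1.27 ± 0.41 on the log2 scale (limma adjusted p = 0.033). The other IRF5 probe set above the floor read 142, 104, 146 and 208, with Raji/R highest and a difference between lines of -0.52 (limma adjusted p = 0.21 when it stands for the gene). Without the Raji array the difference of the brightest probe set was 0.51 (adjusted p = 0.13). The direction between lines therefore depended on the probe set, and part of its size on the parental Raji array.

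Set side by side, the parental arrays and the resistant arrays gave similar sizes for IRF1 (4.29-fold and 3.88-fold higher in Raji cells) and TYK2 (1.97-fold and 2.13-fold). The brightest JAK1 probe set gave 1.65-fold in both. For IRF3 the difference was 2.24-fold between parents and 3.90-fold between sublines. For IRF5 it was at least 4.36-fold in favour of Jeko-1 between parents and 1.34-fold between sublines. On the parental arrays IRF1 and IRF3 were at least 2-fold higher in Raji (26.4% of all genes were) and IRF5 in Jeko-1 (22.4%), 3 genes in all beside 48.9% of 13538 genes. On the resistant arrays IRF1, IRF3 and TYK2 were at least 2-fold higher in Raji/R (31.2% of all genes; 53.4% of 14823 in either direction). These 3 also passed both the adjusted p and 2-fold in the fit, beside 23.8% of all genes.

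**Figure D2:**
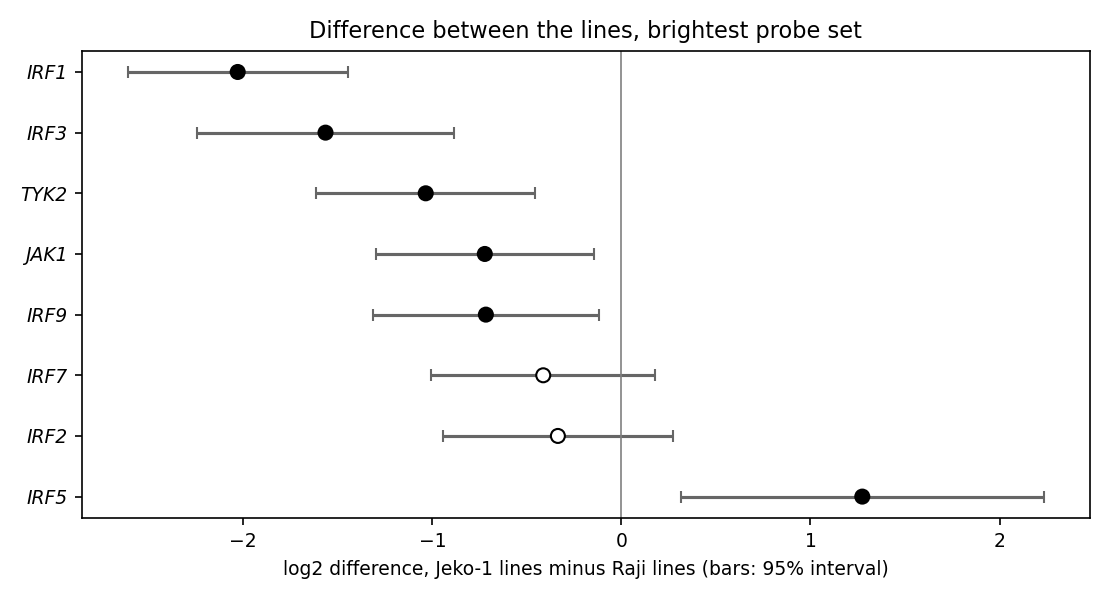
Log2 difference between the Jeko-1 lines and the Raji lines for the brightest probe set of each gene, from limma on 4 arrays (2 per line); bars are 95% intervals, filled points have an adjusted p below 0.05. IRF1 lies at -2.03, IRF2 and IRF7 have intervals that span 0, and IRF5 alone lies above 0, at 1.27.

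These calls rested on few arrays. Leaving out Jeko-1 or Jeko-1/R, with cell line as the only term, ended all of them, whereas 5 genes were called by that model on 4 arrays. IRF1 then had a limma adjusted p of 0.060 and 0.062, with its difference still at -2.01 and -2.05, and 0 of 15575 genes were called although 6059 and 6074 had an unadjusted p below 0.05. Without the floor IRF1 alone was called (adjusted p = 0.042). Each array centred on its median, which moved the median of all genes from -0.29 to -0.15, left IRF1, IRF3, TYK2 and IRF5 called, with JAK1 at an adjusted p of 0.27 and IRF9 at 0.28. Quantile normalization ended the calls of JAK1 and IRF5, and the mean of probe sets also ended these, with JAK1 at -0.09 (adjusted p = 0.67) and IRF5 at 0.25 (0.48). Summed signals of markers of other cell types also differed between the lines, but they include values below the floor, which were not ranked. Of the 5 markers of each immune type below, 0 or 1 reached the floor per Jeko-1 culture and 1 to 3 per Raji culture. The summed signal of 5 myeloid markers was 158 and 180 in the Jeko-1 cultures and 554 and 759 in the Raji cultures, that of 5 plasmacytoid dendritic cell markers 83.2 to 113 and 204 to 520, that of 5 T-cell markers 116 to 237 and 312 to 400, that of 5 NK-cell markers 105 to 180 and 1095 to 2132, and that of 5 fibroblast and epithelial markers 390 to 605 and 2245 to 2267. NKG7 gave most of the NK-cell sum in the Raji cultures (883 and 1749) and COL1A1 most of the last (1916 and 1465). EPCAM, in the same list as COL1A1, went the other way, with 324 and 184 in the Jeko-1 cultures and 84.2 and 60.8 in the Raji cultures. ITGAM (314 and 279), CSF1R (155 and 241) and LILRA4 (101 and 262) were above the floor in both Raji cultures, whereas CD14, LYZ, IL3RA, GZMB, GNLY and KLRF1 lay below it on every array. The part of other cell types in these differences was not tested.

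Within the Jeko-1 pair, the subline was set against its parent by ratios, without a test. Interferon signalling genes were nearly level in this pair. The 8 genes had log2 ratios between -0.59 and 0.30 with a median of -0.03, beside a median of 0.00097 over 11588 genes, and 0 of them passed 2-fold, beside 0.975% of all genes (0.38% higher and 0.595% lower). IRF7 had the lowest ratio, 1.51-fold lower in Jeko-1/R (-0.59), and IRF2 the highest (0.30). The ratio of IRF5 was -0.18, and -0.45 by the other probe set. JAK1, TYK2, IRF9, IRF1 and IRF3 lay within 0.06 of 0, except for dimmer JAK1 probe sets, which ranged from -0.20 to 0.64. Log2 ratios of different probe sets of 1 gene varied with an SD of 0.25 in this pair (5310 genes). The ratio of IRF7 exceeded this spread, which covers probe sets and not cultures.

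In the Raji pair 1 of the 8 genes, IRF5, passed 2-fold, and IRF3 came nearest among the others. IRF5 was at least 2.87-fold higher in Raji/R by its brightest probe set, from a parental value below the floor, and 1.42-fold higher by its other probe set. Of all 14642 genes in this pair 9.64% passed 2-fold, 7.01% upward and 2.64% downward. IRF3 had a ratio of 1.69-fold (log2 ratio 0.75), and IRF9 stood at 0.36. TYK2 (0.06), JAK1 (-0.03), IRF1 (-0.11, with -0.23 from its other probe set) and IRF2 (-0.13) were close to 0, and IRF7 was at -0.29. The median over the 8 genes was 0.01, beside 0.08 over all genes. Centring each array on its median moved the latter to -0.31, and IRF9 (-0.05) and TYK2 (-0.35) then lay below 0, while IRF5 (1.21) and IRF3 (0.34) stayed above. Probe sets of 1 gene varied with an SD of 0.49 here (4949 genes), a spread that covers probe sets and not cultures. The other IRF5 probe set (0.51) and IRF3 with median centring (0.34) lay near or below it.

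The IRF5 ratio in Raji/R fell short of 2-fold when its probe sets were averaged (0.68) or when x_at and s_at probe sets were left out (0.51). The median log2 signal of this array was 6.59, against 6.11 to 6.18 on the other 3 arrays, and 72.7% of all 2-fold changes in the pair ran upward, against 53.6% with quantile normalization, 22.1% with median centring and 52.0% with a lowess adjustment. Markers of plasmacytoid dendritic cells and myeloid cells, which use IRF5 and IRF7, were measured beside it. Of 5 plasmacytoid dendritic cell markers 1 reached the floor in Raji and 3 in Raji/R, with a summed signal of 204 and 520, and of 5 myeloid markers 2 and 3 did so, with 554 and 759. Of all probe sets 48.3% and 55.6% reached the floor on these arrays. CLEC4C (85.8) and NRP1 (87.4) lay close above the floor in Raji/R. The highest signals among these markers in Raji/R were 262 for LILRA4 and 279 for ITGAM, and IL3RA, GZMB, CD14 and LYZ lay below the floor. Their part in the IRF5 ratio was not tested.

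**Figure D3:**
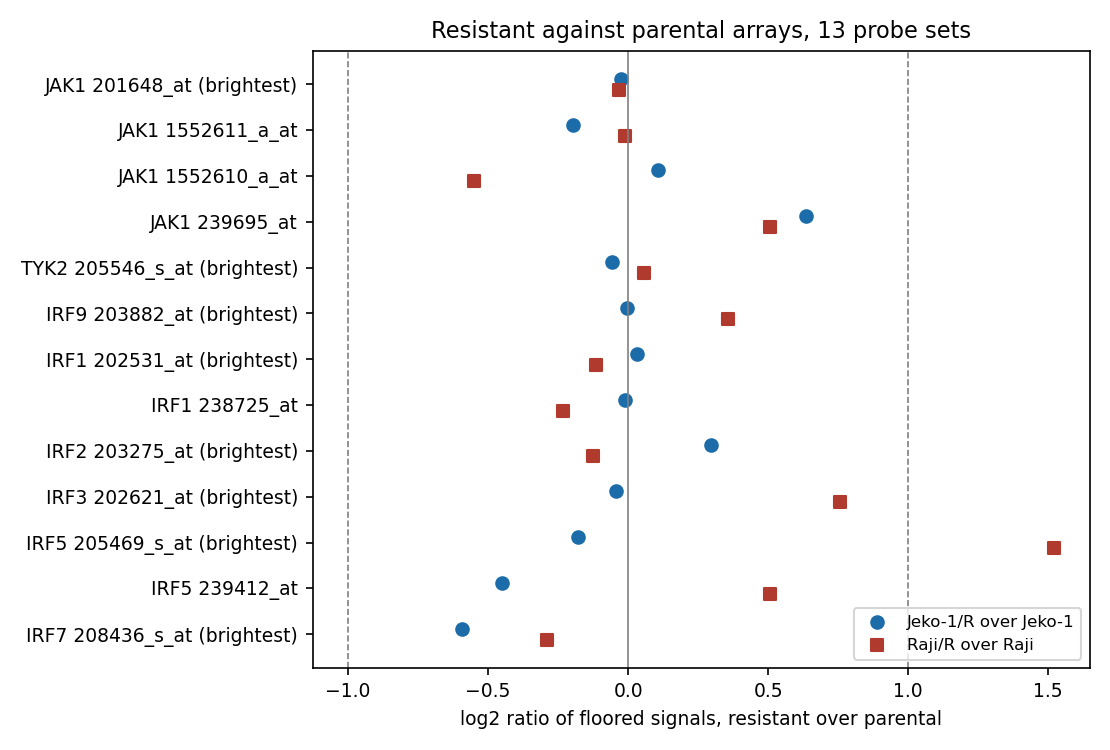
Log2 ratio of resistant over parental signal, after values below the floor were raised to it, for the 13 probe sets that reached the floor; circles are the Jeko-1 pair, squares the Raji pair, and dashed lines mark 2-fold. One point, the brightest IRF5 probe set in Raji/R at 1.52, passes 2-fold, and IRF7 lies below 0 in both pairs.

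A further comparison asked for a shift shared by both sublines, from the same limma fit with cell line as the block. It called 0 of the 8 genes and 0 of 15575 genes, while 324 of all genes had an unadjusted p below 0.05 and none of the 8 did. IRF7 had the most negative estimate, -0.44 ± 0.25 (95% interval -1.04 to 0.15), lower in the subline in 2 of 2 pairs. IRF5 had the highest, 0.67 ± 0.41 (-0.29 to 1.63), with opposite signs in the pairs. The estimates of the other genes lay between -0.04 and 0.36. The smallest adjusted p among the 8 genes was 0.97.

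The rest of the pathway was read from gene lists, as counts of the same comparison between lines. Interferon receptors stood higher in the Raji lines in 5 of 6 genes and higher in the Jeko-1 lines in 0, with a median of -1.25, where 30.1% and 23.3% of all genes were called in these directions and the median was -0.29. Over the 10 settings with the 4 arrays, 2 to 6 receptors were called higher in Raji, with medians from -1.25 to -0.66. The type I receptor chain IFNAR2 read 1343 and 1204 in the Jeko-1 pair and 4307 and 4103 in the Raji pair, parent first (log2 difference -1.73). IFNGR2, a chain of the interferon gamma receptor, had a difference of -1.38, and IFNLR1, of the lambda receptor, one of -1.12. IFNGR1 had one of -1.11, with -1.06 and 0.12 from its other probe sets. IFNAR1 stood at -2.10, but its 3 other probe sets gave 0.25, 0.85 and 1.24, so its direction is uncertain. IL10RB (-0.65) did not pass. Of the other STATs and JAKs tested, 3 of 6 were higher in the Raji lines and 2 in the Jeko-1 lines. STAT3 stood at -1.94, with -1.71 and -1.67 from its other probe sets, STAT5B at -2.15, with -1.22, -1.18, 0.07 and 0.83 from its others, and JAK3 at -1.41, with 1.16 from its other. STAT5A was at least 3.68-fold higher in the Jeko-1 lines, being below the floor on both Raji arrays. STAT6 was also higher there (0.72), close to the threshold (limma adjusted p = 0.048) and with 0.18 from its other probe set. JAK2 (-0.61) did not pass. STAT4 lay below the floor on every array. Of the other IRFs, IRF4, a factor of activated B cells and plasma cells, read 5515 and 6385 in the Jeko-1 pair and 175 and 332 in the Raji pair (4.62, with 0.77 from its other probe set), while IRF8 (-0.28) did not pass.

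Sensors and adaptors that feed IRF3, IRF5 and IRF7 split between the lines, with 8 of 20 higher in Raji and 4 higher in Jeko-1, not far from the shares of all genes (30.1% and 23.3%). TBK1, the kinase that phosphorylates IRF3, read 4321 and 4550 in the Jeko-1 pair and 357 and 442 in the Raji pair (3.48). The endosomal receptor TLR7 (4.67) and the IRF5 adaptor TASL (3.06) were also higher in Jeko-1 cells. TLR7 lay below the floor in Raji, and its other probe set gave 1.72. SLC15A4, the partner of TASL, went the other way (-2.18), as did the kinases IKBKE (-1.94) and IRAK1 (-1.66). Negative regulators had 9 of 21 genes higher in Jeko-1 and 5 higher in Raji (23.3% and 30.1% of all genes). SOCS2 (4.74) led the former, although it lay below the floor in Raji and its other probe set gave 1.74. SOCS1 led the latter (-2.27, although its other probe sets gave -0.02 and -1.62). Of 20 interferon ligand genes 18 had a probe set, 7 of these reached the floor on at least 1 array, and 0 were called.

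The counts of target genes leaned towards Jeko-1 for ISGF3 and towards Raji for IRF1. Of 40 ISGF3 target genes 22 were higher in the Jeko-1 lines and 10 in the Raji lines, with a median of 1.03. Of 21 target genes of IRF1 and interferon gamma 2 were higher in the Jeko-1 lines and 12 in the Raji lines, with a median of -1.09. Among all genes 23.3% were called higher in the Jeko-1 lines and 30.1% in the Raji lines. IFITM1 (5.50), MX2 (4.29) and IFITM2 (4.15) led the ISGF3 targets in Jeko-1 cells, the latter pair with 1 Raji array each below the floor, and BST2 (-2.87) and ISG20 (-2.52) led those in Raji cells. ICAM1, an adhesion molecule, read 198 and 204 in the Jeko-1 pair and 4851 and 5747 in the Raji pair (-4.72), and CXCL10, a chemokine gene below the floor in both Jeko-1 cultures, was at least 14.2-fold higher in the Raji lines. The medians kept their signs in all 10 settings examined with the 4 arrays, while the counts ranged from 10 to 22 for ISGF3 targets higher in Jeko-1 and from 7 to 12 for IRF1 targets higher in Raji. Without Jeko-1 or without Jeko-1/R 0 genes of either list were called. The difference between the lists was not tested.

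**Figure D4:**
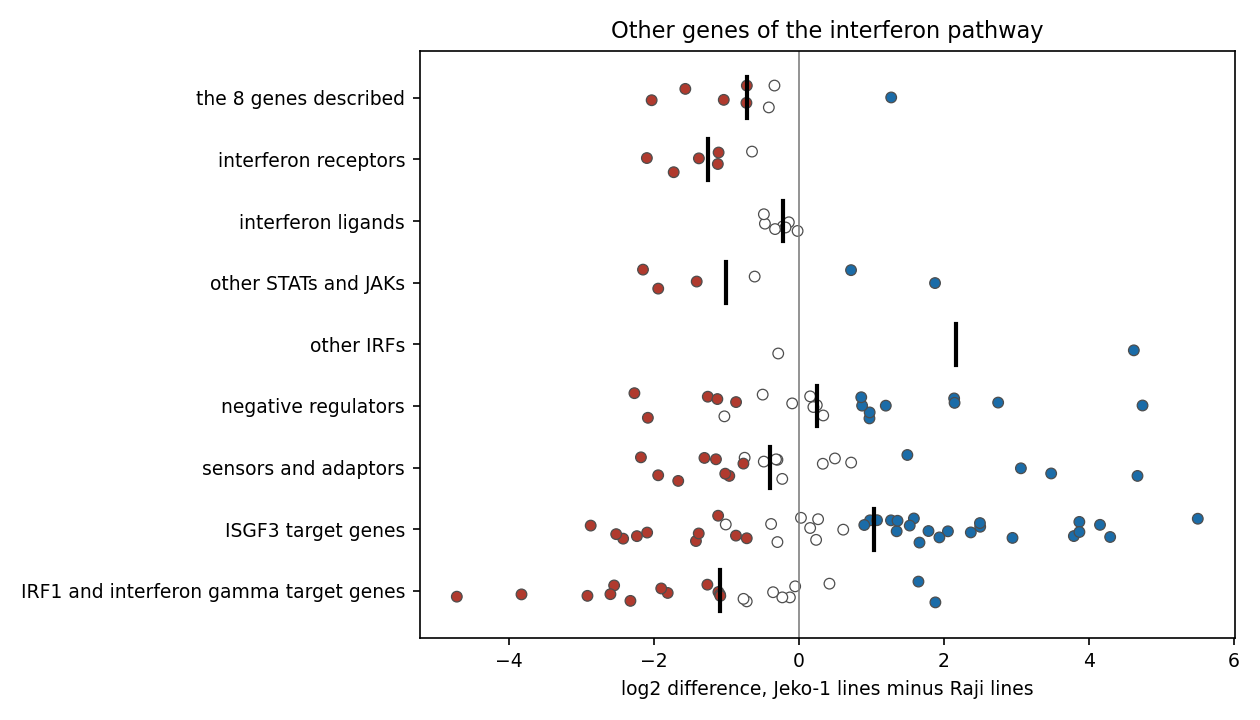
Log2 difference between the Jeko-1 lines and the Raji lines for each tested gene of the pathway lists, brightest probe set, 2 arrays per line; filled points have a limma adjusted p below 0.05 (blue higher in Jeko-1, red higher in Raji) and thick bars are list medians, with vertical position within a list arbitrary. The receptors lie below 0 with a median of -1.25, and the medians of the ISGF3 targets and the IRF1 targets are 1.03 and -1.09.

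Between parent and subline, the receptors had 0 of 6 genes past 2-fold in either pair. Of 38 ISGF3 targets in the Jeko-1 pair 5 were at least 2-fold lower and 0 higher in Jeko-1/R, with a median of -0.35 (0.595% of all genes were lower in this pair). IFI44L read 935 in Jeko-1 and 206 in the subline, and IFI44 read 391 and 99.6. Of 30 in the Raji pair 5 were lower and 2 higher in Raji/R, with a median of -0.15 (2.64% and 7.01% of all genes). IFIT2, an inhibitor of translation, read 324 in Raji and 77.6 in the subline, and the antiviral gene PARP12 82.2 and 266. IRF9, the member of ISGF3 measured here, had log2 ratios of -0.003 and 0.36 in these pairs. The IRF1 targets had 0 of 16 genes past 2-fold in Jeko-1/R and 1 of 20 in Raji/R, the chemokine gene CXCL11, which was lower (-1.31, with -0.15 from its other probe set). Of the sensors and adaptors, 3 of 20 were at least 2-fold higher in Raji/R (7.01% of all genes), namely UNC93B1, CGAS and STING1. In Jeko-1/R 0 of 18 passed 2-fold. UNC93B1 and STING1 lay below the floor in Raji, and their other probe sets were also higher in Raji/R. The other CGAS probe set had a log2 ratio of 0 in the Raji pair after flooring. JAK2, which lay below the floor in Raji, was at least 2.33-fold higher in Raji/R, with 0.34 from its other probe set.

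Read by the brightest probe sets, IRF5 had the widest range over the 4 arrays, 2.12 on the log2 scale after flooring, beside 2.10 for IRF1. The other IRF1 probe set ranged more widely, differing by -2.48 between Jeko-1 and Raji alone. The brightest IRF5 probe set, with its Raji value at the floor, was compared with 9219 genes above the floor on all arrays. The nearest patterns were those of MEX3A, MAPK6 and PECAM1, with root mean square differences of 0.13, 0.14 and 0.14 between gene-centred log2 signals. With 4 arrays such a likeness is a description only.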

How the data were processed

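Total RNA of 4 cultures was hybridised to 1 array each. The authors deposited log2 signals per probe set, and MAS5 is the software named per the submitters' processing notes, its version being not given in the sources used here. Base 2 was inferred from the values: with it, the mean signal without the top and bottom 2% was 493 to 497 on every array. MAS5 scales an array by 1 factor, so shifts that depend on signal level remain. Detection calls and RNA quality were not used here.

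Of 54613 probe sets, 41091 had 1 gene symbol, 1801 several and 11721 none; gene IDs of 41037 matched the RefSeq table (GRCh38.p14). Values below the pooled median were raised to it. A gene was read by its probe set of highest mean signal, and every probe set of the 8 genes is also given. Ratios within a line have no test. Between lines, limma 3.58.1 (R 4.3.3) used line and state over genes at or above the floor on at least 1 array. Parent and subline were paired because each subline derives from that parent's cell line. On simulated data with few changed genes the fit recovered most of the large differences between lines but none of 2-fold. Pathway lists and markers were set from textbook knowledge (IFIH1 and USP18 stand in more than 1 list); members and lists were chosen with earlier results of these data known. The rule for named genes took all 8 genes, all other STATs, JAKs, IRFs and receptors, up to 4 called or 2-fold genes per list and direction, and the 3 genes most like the gene of widest range; some of these are not printed. Scripts used Python 3.11.15, pandas 2.3.3, numpy 2.4.6, statsmodels 0.14.6 and matplotlib 3.10.9. Alternatives were 2 scalings, a higher floor and none, 2 choices of probe set, other model terms and each array left out; a lowess adjustment (fraction 0.3) was added after seeing the data.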

Additional observations from a re-analysis of the deposited data

Results flagged for a closer look

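In 6 of the 8 genes the ratio of resistant over parental signal had opposite signs in the Jeko-1 and Raji pairs. Of 10655 genes measured in both pairs 50.2% did so. Some of these ratios were close to 0 (TYK2 -0.06 and 0.06, IRF9 -0.003 in Jeko-1/R), and the other IRF1 probe set had the same sign in both pairs (-0.01 and -0.23). The log2 ratio in Raji/R minus that in Jeko-1/R was 1.70 for IRF5, 0.80 for IRF3, 0.36 for IRF9, 0.12 for TYK2, -0.15 for IRF1 and -0.42 for IRF2. With 1 array per culture these differences were not tested. With median centring IRF9 and TYK2 had log2 ratios of -0.05 and -0.35 in Raji/R, on the same side of 0 as in Jeko-1/R.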

How the results depend on the processing

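The number of genes past 2-fold in Raji/R went from 1 to 0 with the mean of probe sets, with x_at and s_at probe sets left out, and with a floor at the 75th percentile, below which IRF5 lay on every array. In Jeko-1/R it was 0 in each of the 7 alternatives. Between lines, the 6 calls became 1 without a floor and, of 6 testable genes, 3 without x_at and s_at probe sets, and ranged from 0 to 6 when 1 array was left out, with 0 without Jeko-1 or without Jeko-1/R. With no replicate block (cell line as the only term) 5 genes were called, IRF5 having an adjusted p of 0.14. IRF5 reversed to -0.52 without x_at and s_at probe sets. For the shift shared by both sublines, IRF2 reversed to -0.13, IRF9 to -0.035 and TYK2 to -0.21 with median centring, and JAK1 to 0.043 with the mean of probe sets; no gene of the 8 was called in any setting. Over all genes the 2-fold counts, 113 with Jeko-1 and 1412 with Raji as parent, were 26 and 139 with the higher floor, 432 and 3373 without a floor, and 47 and 718 with the mean of probe sets. The 8319 genes called between lines became 4379 without a floor, and 0 genes called over both sublines became 4 with median centring. The causes were not tested.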
